A study of Mus musculus with 11 samples.

Results

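The genes described here are a panel of 38 cell cycle genes that mark proliferating cells, followed through embryonic day 17 mouse kidneys. The members were chosen by name: 13 genes of DNA replication (S phase), 4 cyclins of G1 and the G1/S step, and 21 genes of mitosis. A probe set named for the gene alone was found for 37 of the 38, out of 18193 genes measured. In the annotation used here no probe set carried Ccnb1 as its only gene name. Ccnb1 was therefore not analysed, and the mitosis group held 20 measured genes. Each gene was read from its brightest probe set, and 28 members had several. The 11 arrays comprised 4 wild-type and 7 Robo2 homozygous kidney samples, all of embryonic day 17. By title they form 3 series. The series R2E17 held 1 wild-type and 1 homozygous array, the series R2NB held 3 homozygous arrays, and the series E17R2 held 3 wild-type and 3 homozygous arrays. The letters NB, the Robo2 allele and the strain of the mice are not explained in the labels. Separate animals are not stated either, so p-values cover only the spread between arrays, which could be technical in origin. Arrays are named by series, genotype and the number in the title.

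A cell commits to division in G1, when D-type and then E-type cyclins activate their kinases and release E2F factors from the retinoblastoma proteins. E2F targets include the Mcm helicase, the clamp Pcna and the enzymes that make deoxynucleotides, which copy the genome in S phase. Cyclin A2, B-type cyclins and Cdk1 then drive mitosis, in which kinesins, kinetochore proteins and the Aurora and Polo kinases build the spindle and part the chromosomes. The embryonic kidney grows by division of nephron progenitors, ureteric bud tips and stroma, and cells leave the cycle as tubules mature. ROBO2 is a receptor for SLIT ligands that restricts where the ureteric bud grows out.

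Promoter sequences of the 2 main groups are shown because they hold different letters, a property that the choice of members did not use. The RefSeq table (GRCm38.p6) gave windows of 250 bases before to 50 bases after the start for 29 of the 38 genes, of which 17 were mitosis genes and 11 S phase genes. Both strands were searched. The letters TTTGAA, the cell cycle homology region bound by the DREAM and MuvB complexes, were in 12 of 17 mitosis genes (70.6%), in 1 of 11 S phase genes (Mcm2) and in 17.9% of all 32851 promoters. An E2F-type sequence, TTTGGCGC or TTTCGCGC, was in 5 of 11 S phase genes (45.5%: Mcm3, Mcm5, Mcm6, Mcm7 and Cdt1), in 1 of 17 mitosis genes (Cdk1) and in 0.813% of all promoters. The letters CCAAT, read by the factor NF-Y, were in 15 of 17 mitosis genes, 8 of 11 S phase genes and 37.4% of all promoters. These matches describe the sequence and are not measured binding sites. The windows below run 5′ to 3′ on the gene's strand and end before the start site. Capitals mark the 3 motifs and appear as their reverse complement where the match is on the other strand.
Cdk1, chr10:69352913-69353052, minus strand: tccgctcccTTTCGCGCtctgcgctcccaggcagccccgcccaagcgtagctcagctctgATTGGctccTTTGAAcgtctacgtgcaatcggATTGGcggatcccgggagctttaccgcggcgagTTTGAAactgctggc
Cdc20, chr4:118437344-118437413, minus strand: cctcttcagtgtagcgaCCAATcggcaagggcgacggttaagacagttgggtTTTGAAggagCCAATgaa
Kif11, chr19:37376322-37376381, plus strand: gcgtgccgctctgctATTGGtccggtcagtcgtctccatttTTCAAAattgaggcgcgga
Mki67, chr7:135716455-135716574, minus strand: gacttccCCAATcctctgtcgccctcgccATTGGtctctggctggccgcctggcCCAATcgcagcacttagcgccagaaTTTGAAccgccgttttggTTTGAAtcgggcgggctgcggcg
Mcm6, chr1:128359706-128359830, minus strand: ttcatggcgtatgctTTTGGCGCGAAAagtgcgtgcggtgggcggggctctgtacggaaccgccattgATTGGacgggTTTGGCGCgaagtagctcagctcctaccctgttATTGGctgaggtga
Mcm5, chr8:75109344-75109508, plus strand: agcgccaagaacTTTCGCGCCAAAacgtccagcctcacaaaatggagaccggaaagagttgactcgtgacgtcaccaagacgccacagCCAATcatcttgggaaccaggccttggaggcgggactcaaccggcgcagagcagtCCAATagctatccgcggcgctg
Cdk1, the mitotic kinase, holds all 3 motifs, with TTTGAA starting 71 and 15 bases before the start. Cdc20, the activator of the anaphase-promoting complex, Kif11, the kinesin that pushes spindle poles apart, and Mki67, the gene of the proliferation marker Ki-67, hold TTTGAA and CCAAT only. Mcm6 and Mcm5, subunits of the replicative helicase, hold E2F-type sequences and CCAAT but no TTTGAA. In both, 1 pair of E2F-type matches overlaps on opposite strands. The split was seen beyond the members too, since TTTGAA was in 37 of 55 other mitosis genes and 9 of 39 other replication genes, and the E2F-type letters were in 4 of 55 and 8 of 39.

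The deposited intensities fell into 2 sets of different distribution; how each was normalized beyond RMA is not stated. The set of 5 comprised the R2E17 and R2NB arrays, with median intensities of 47.1 to 53.4. The set of 6 comprised the E17R2 arrays, with medians of 23.4 to 24.6. All values below are log2 intensity minus the array's median over genes, unless stated otherwise, so 0 is the median gene of that array. Kidney markers were present on every array: 7 defining kidney genes had array means of 2.99 to 3.18 (set of 5) and 1.26 to 2.46 (set of 6), and Cdh16, Lrp2 and Umod were the 3 with the highest mean. Free-text labels that speak of human brain go against this, and the mean of 7 brain genes was -2.55 to -1.35. Robo2 itself was dim, at -2.99 ± 0.28 (SD, n = 3) in E17R2 wild-type and -4.03 ± 0.19 (SD, n = 3) in E17R2 homozygous arrays. The genotypes did not overlap, and Robo2 differed by -1.04 ± 0.17 (SE; limma unadjusted p = 0.00057, adjusted p = 0.80). The smallest adjusted p over all genes in that fit was also 0.80. Whether the Robo2 probe set lies in the altered part of the gene was not examined. In the set of 5 Robo2 read -3.44 in the wild-type array, -4.15 in the R2E17 homozygous array and -4.20, -3.63 and -3.52 in the R2NB arrays. RNA quality was set apart most on 1 array, R2E17 wild-type 3. There control probe sets at the 3′ end exceeded those at the 5′ end by 0.70 (log2) for Gapdh and 1.12 for Actb. Next came R2NB homozygous 5 (0.22 and 0.75) and R2NB homozygous 4 (0.18 and 0.72). For Actb the set of 5 ran from 0.54 to 1.12 and the set of 6 from 0.34 to 0.58. The part of RNA quality in the members' levels was not tested.

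**Figure D1:**
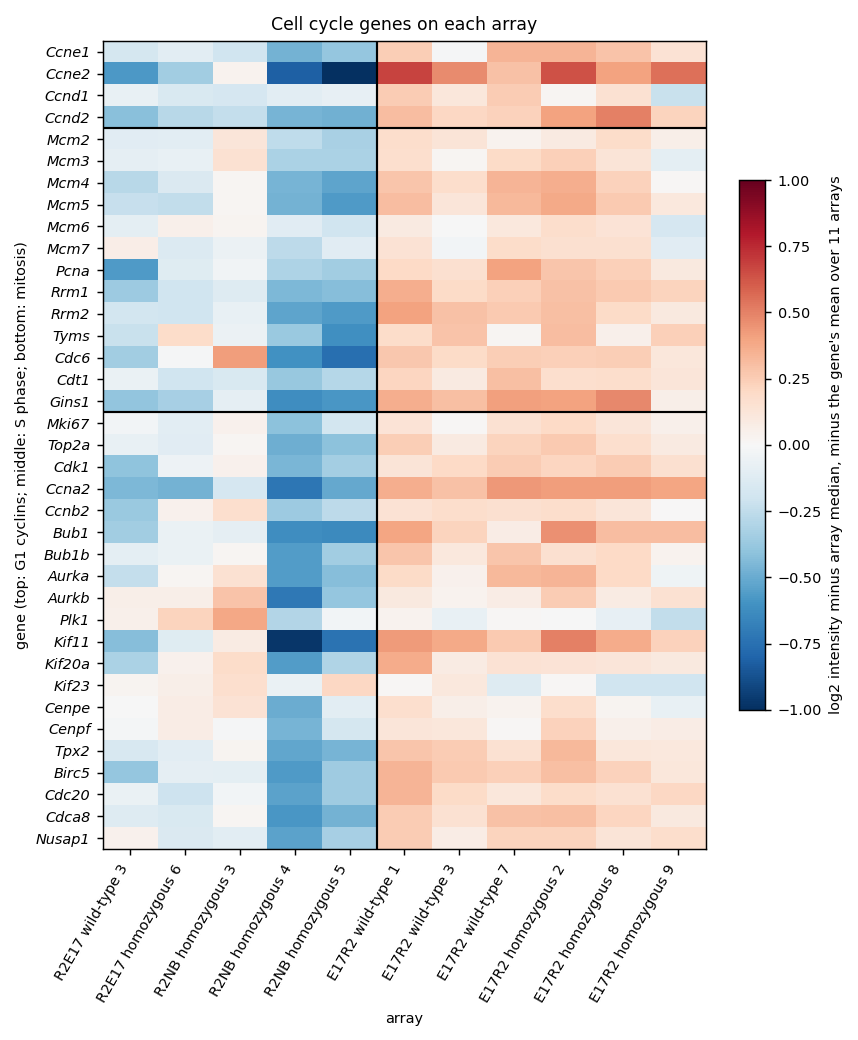
Each row is a measured member and each column an array. Colour gives the gene's log2 intensity minus the array median, less the gene's own mean over the 11 arrays, on a scale of -1 to 1, and horizontal lines part G1 cyclins, S phase and mitosis genes. The 5 arrays left of the vertical line are lower than the 6 right of it for most genes, R2NB homozygous 4 and 5 hold most of the lowest values, and wild-type and homozygous E17R2 columns look alike.

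The first comparison set the R2E17 and R2NB arrays against the E17R2 arrays, as arrays that share age and tissue labels. Cell cycle genes were lower in the R2E17 and R2NB arrays. Of the 37 measured members, 28 (75.7%) were lower in limma at a Benjamini-Hochberg adjusted p under 0.05 and 0 were higher. Of all genes 59.9% passed, 41.6% lower and 18.3% higher. In the median member the log2 difference was -0.41, against -0.17 for the median gene, so the median member fell 0.24 further (-0.24 relative to it). By group, 10 of 13 S phase genes (median -0.48), 15 of 20 mitosis genes (median -0.37) and 3 of 4 G1 and G1/S cyclins (median -0.61) fell. Genotype was a term in this fit. Normalization, title series and any difference between the samples cannot be told apart here. In these whole kidneys, fewer dividing cells and less RNA per cell also cannot be told apart. The direction rests on centring. On values as deposited the median gene was 1.02 higher in the set of 5 and the median member 0.78 higher. There 0 members were lower and 35 higher. The gap to the median gene is -0.24 on either scale by construction, because centring shifts all genes of an array alike. With quantile normalization over all 11 arrays, which left 26.1% of genes lower and 24.2% higher, 26 members were lower and 0 higher.

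The G1 cyclins held the largest difference of the panel. Ccnd2, a D-type cyclin that partners Cdk4 and Cdk6, read 3.85 and 3.99 in the R2E17 arrays and 4.03, 3.81 and 3.79 in the R2NB arrays. In the set of 6 the lowest, median and highest values of Ccnd2 were 4.48, 4.54 and 4.78. Every array of the set of 5 thus lay below every array of the set of 6 for Ccnd2, and the log2 difference was -0.72 ± 0.08 (SE; limma adjusted p = 1.966e-05). Ccne2, an E-type cyclin that activates Cdk2 at the start of S phase, read -0.91, -0.69, -0.30, -1.15 and -1.66 in the same order, against -0.04 to 0.34 (median 0.17) in the set of 6. Its groups did not overlap (-1.11 ± 0.21 SE, limma adjusted p = 0.001066), but its signal lay near or below the median gene. Ccne1, the other E-type cyclin, read 1.30 and 1.36 in the R2E17 arrays and 0.9998 to 1.27 in the R2NB arrays, against 1.46 to 1.81 (-0.49 ± 0.10 SE, limma adjusted p = 0.00115). Ccnd1, the D-type cyclin of many growth-factor responses, read 4.19 to 4.29 in the set of 5 against 4.14 to 4.62. The groups overlapped for Ccnd1 through E17R2 homozygous 9, at 4.14, and the difference of -0.16 ± 0.08 (SE) did not pass the test (limma adjusted p = 0.08788).

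Among replication genes, Gins1 and Rrm1 fell most. Gins1, a subunit of the GINS complex that activates the helicase, read 1.59 and 1.65 in the R2E17 arrays, 1.89, 1.36 and 1.40 in the R2NB arrays, and 2.04 to 2.46 (median 2.36) in the set of 6. The groups were apart, and Gins1 differed by -0.73 ± 0.11 (SE; limma adjusted p = 0.0002798). Rrm1, the large subunit of ribonucleotide reductase, read 2.87, 3.03, 3.10, 2.78 and 2.81 against 3.43 to 3.60 (-0.58 ± 0.08 SE, limma adjusted p = 8.112e-05). Rrm2, the small subunit that is made in S phase, followed it at -0.53 ± 0.10 (SE). Pcna, the sliding clamp of DNA polymerase, read 4.97 and 5.42 in the R2E17 arrays, 5.51, 5.23 and 5.20 in the R2NB arrays and 5.64 to 5.94 in the set of 6. Its groups were apart as well (-0.53 ± 0.10 SE, limma adjusted p = 0.0008972), and its lowest value was in R2E17 wild-type 3, the array with the RNA quality gap.

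The 6 Mcm2 to Mcm7 genes, which encode the ring of the replicative helicase, gave differences that depended on the probe set. On the brightest ones Mcm4 (-0.50 ± 0.11 SE), Mcm5 (-0.54 ± 0.11 SE) and Mcm2 (-0.24 ± 0.08 SE, limma adjusted p = 0.02817) fell. Mcm3 (-0.22 ± 0.10 SE), Mcm6 (-0.12 ± 0.08 SE) and Mcm7 (-0.16 ± 0.08 SE) did not pass. With the mean of all probe sets Mcm6 was called (-0.38), while Mcm5 (-0.24) and Mcm2 (-0.05) were not, and without suffixed probe sets Mcm5 was at -0.07. Differences between the Mcm genes were not tested. Mcm7 read 4.54 to 4.86 against 4.68 to 4.98, so the ranges overlapped. Without E17R2 homozygous 9 Mcm3, Mcm6 and Mcm7 were called too, at -0.28, -0.19 and -0.21. Of the licensing factors that load the helicase, Cdt1 fell by 0.37 on the log2 scale (-0.37 ± 0.07 SE) with groups apart. Cdc6, the other loader, read 0.42, 0.76, 1.19, 0.17 and 0.02 in the set of 5 against 0.89 to 1.04, and passed only narrowly (-0.48 ± 0.19 SE, limma adjusted p = 0.04967). R2NB homozygous 3 had the highest Cdc6 value of all 11 arrays. Tyms, thymidylate synthase, read -3.13 to -2.20 over the 11 arrays, far below the median gene on each, so its difference of -0.41 ± 0.14 (SE) rests on a dim signal.

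Mitosis genes fell in the same comparison, except that Plk1, Kif23, Aurkb, Cenpe and Cenpf did not pass the test. Ccna2, the cyclin of S phase and mitotic entry, had the smallest adjusted p of the mitosis genes. It read 2.74 and 2.72 in the R2E17 arrays, 3.03, 2.47 and 2.68 in the R2NB arrays, and 3.49, 3.60 and 3.63 as lowest, median and highest of the set of 6. No array of one set reached the other, and the difference was -0.86 ± 0.09 (SE; limma adjusted p = 2.307e-05). Kif11 read 0.75, 1.06, 1.26, 0.21 and 0.44 against 1.41 to 1.68 (-0.80 ± 0.18 SE, limma adjusted p = 0.002997). This probe set carries a suffix, and without suffixed probe sets Kif11 was not called (-0.12). The spread inside the set of 5 was wide for Kif11, with R2NB homozygous 4 more than 1 log2 unit under R2NB homozygous 3. Cdk1 read 3.18, 3.53, 3.62, 3.13 and 3.24 against 3.71 to 3.83, again without overlap (-0.47 ± 0.10 SE, limma adjusted p = 0.0018). Birc5, the survivin subunit of the chromosomal passenger complex, differed by -0.55 ± 0.10 (SE), and Bub1, a kinase of the spindle checkpoint, by -0.67 ± 0.13 (SE).

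Mki67 showed less of a gap. It read 4.10 and 4.02 in the R2E17 arrays, 4.17, 3.72 and 3.95 in the R2NB arrays, and 4.14 to 4.33 (median 4.26) in the set of 6. R2NB homozygous 3 lay inside the range of the set of 6, and the difference was -0.24 ± 0.09 (SE; limma adjusted p = 0.03492). Plk1, the Polo kinase of mitotic entry and cytokinesis, read 1.97, 2.14, 2.31, 1.63 and 1.89 against 1.67 to 1.95 (0.14 ± 0.12 SE, limma adjusted p = 0.3114). Kif23, a kinesin of the midbody, read 1.62, 1.65, 1.76, 1.52 and 1.80 against 1.39 to 1.69 (0.16 ± 0.08 SE, limma adjusted p = 0.1048). Plk1 and Kif23 were the only members of the 37 with a difference above 0, and in both the sets overlapped. Aurkb, Cenpe and Cenpf, a passenger kinase and a pair of kinetochore proteins, lay at -0.25, -0.13 and -0.21 and did not pass either.

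In 20 of 37 members (54.1%) every array of the set of 5 lay below every array of the set of 6, against 30.2% of all genes. These were 6 S phase genes, 11 mitosis genes and 3 cyclins. The reverse pattern was seen in 0 members, against 12.4% of genes. Of the members' other probe sets 47 of 55 were lower in the set of 5, and 28 of the 31 brighter than the median gene, where 11738 of 18193 genes had a fitted difference below 0. Of the 28 members called lower, 11 were called under every alternative on centred values that measured them: Cdk1, Ccna2, Ccne1, Ccne2, Ccnd2, Birc5, Cdc20, Mcm4, Pcna, Rrm1 and Gins1. The choice of probe set mattered. Without suffixed probe sets 18 members were called lower, and Kif11, Cdca8, Mcm2, Mcm5, Rrm2 and Cdt1 lost the call. Top2a turned (0.16) there, read from a dimmer probe set (mean -0.71, against 3.99 for its brightest). With the mean of all probe sets 19 were called lower, and Bub1b (0.03) and the uncalled Ccnd1 (0.12) turned. For Bub1b only its dimmest probe set, at -3.06 over the 11 arrays, was higher in the set of 5 (0.49). Its brighter ones were lower (-0.39 and -0.30, plain differences of set means). With the mean of all probe sets the median member lay at -0.18 relative to the median gene. It lay at -0.13 without suffixed probe sets, against -0.24 in the main fit. Genes called in either direction numbered 10843 with that mean, and 9922 of the fewer genes left without suffixed probe sets, against 10902.

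**Figure D2:**
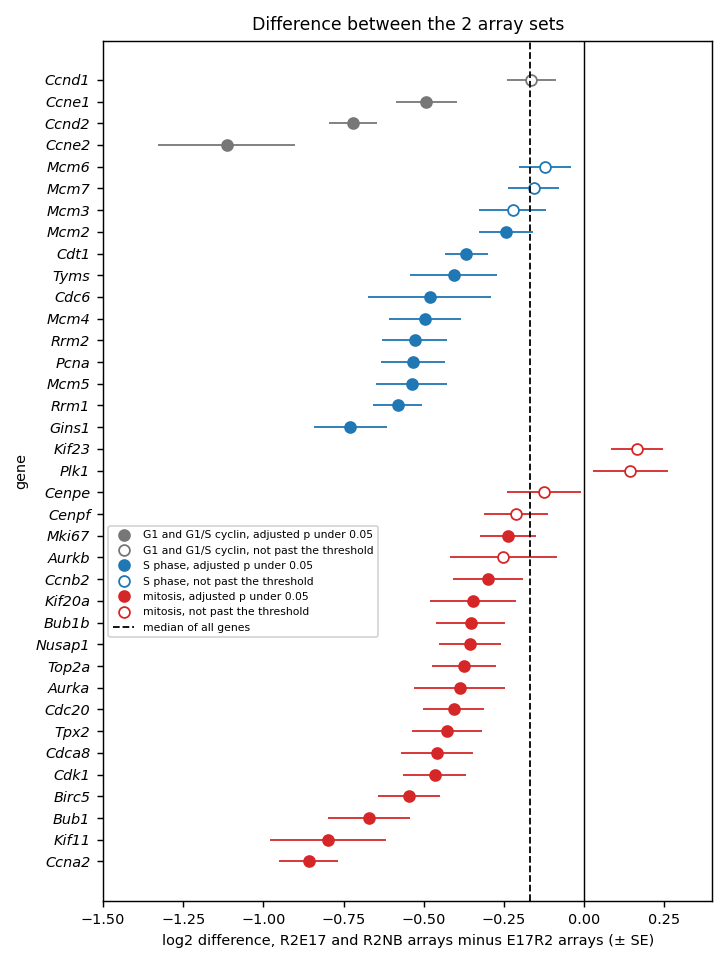
Points give the fitted log2 difference of each member, R2E17 and R2NB arrays minus E17R2 arrays on centred values, with bars of ± SE; filled points had a limma adjusted p under 0.05. The dashed line is the median of all genes at -0.17, and 31 of the 37 members lie to its left, Ccne2 farthest, while Kif23 and Plk1 lie to the right of 0.

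Other genes of the cycle were counted from lists that the choice of members left out. Of 47 other replication genes 35 were lower in the set of 5 and 0 higher (median -0.45), among them Dck, which salvages deoxynucleosides (-0.95 ± 0.12 SE), and Rfc4, a clamp loader subunit (-0.86 ± 0.12 SE). Of 66 other mitosis genes 51 were lower and 0 higher (median -0.44), led by Ska1 (-1.51 ± 0.09 SE) and Cenpk (-1.03 ± 0.10 SE), both kinetochore proteins, and the condensin subunit Ncapg2 (-1.02 ± 0.11 SE). Of 22 E2F, RB and DREAM regulators 8 were lower and 3 higher, shares near those of all genes (41.6% and 18.3%). The E2F partner Tfdp2 (0.63 ± 0.09 SE) and the pocket proteins Rb1 (0.39 ± 0.06 SE) and Rbl2 (0.25 ± 0.06 SE), which hold E2F in check, rose. The related pocket protein Rbl1 fell (-0.29 ± 0.08 SE). E2f1, an activating E2F, fell (-0.39 ± 0.09 SE). Of 18 CDK inhibitors and cell cycle exit genes 8 were lower and 1 higher, the former again near the share of all genes. Those that fell included Cdkn3 (-1.01 ± 0.10 SE) and Pkmyt1 (-0.87 ± 0.09 SE), which act on Cdk1 in dividing cells, and Cdkn1c (-0.62 ± 0.08 SE), an inhibitor of G1 kinases. Of 13 G1 kinases and CDC25 genes 6 were lower, also near that share, such as Cdc25a (-0.39 ± 0.08 SE) and Cdk4 (-0.31 ± 0.07 SE), and 1 was higher, Cdk6 (0.41 ± 0.06 SE).

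Markers of some cell types also differed between the sets. All 13 measured mature tubule genes were higher in the set of 5 (median log2 difference 2.07), and their mean was 3.15 to 3.65 there against 0.26 to 1.59 in the set of 6. Of 6 erythroid genes 5 were lower, with array means of -2.32 to -1.86 against -1.03 to 0.23. Hbb-y differed by far the most (-5.19, against a list median of -0.89). Some of the others read far below the median gene on every array. Of 8 nephron progenitor genes 3 were lower (means 0.51 to 0.92 against 0.91 to 1.16), as were 3 of 6 stroma genes (2.73 to 3.44 against 3.23 to 3.82), which is near the 41.6% of all genes. Of 6 ureteric tip genes 4 were higher. The part of these cell types in the members' difference was not tested.

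The balance of S phase and mitosis genes was followed on each array as the mean of the 13 S phase genes minus the mean of the 20 mitosis genes, read only for its change between arrays because probe sets differ in brightness. It was 0.44 ± 0.09 (SD, n = 5) in the R2E17 and R2NB arrays and 0.49 ± 0.04 (SD, n = 6) in the E17R2 arrays. R2NB homozygous 4 stood apart at 0.60. The other arrays of its set ran from 0.37 to 0.42, below the 0.44 to 0.54 of the E17R2 arrays. With medians over members the gap in balance was wider, and it was not tested. Both groups of genes were lower in the R2E17 and R2NB arrays. The S phase mean was 2.71 ± 0.19 (SD, n = 5) against 3.13 ± 0.08 (SD, n = 6). The mitosis mean was 2.27 ± 0.23 (SD, n = 5) against 2.64 ± 0.06 (SD, n = 6). Neither mean overlapped between the sets: S phase ran from 2.51 to 2.95 against 3.00 to 3.20, and mitosis from 1.95 to 2.54 against 2.56 to 2.72. Across arrays both means moved together, with Pearson's r of 0.89 over the 6 E17R2 arrays and 0.93 over the 5 other arrays. The arrays are few, each r lies within 1 set, and r is given as a description only.

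**Figure D3:**
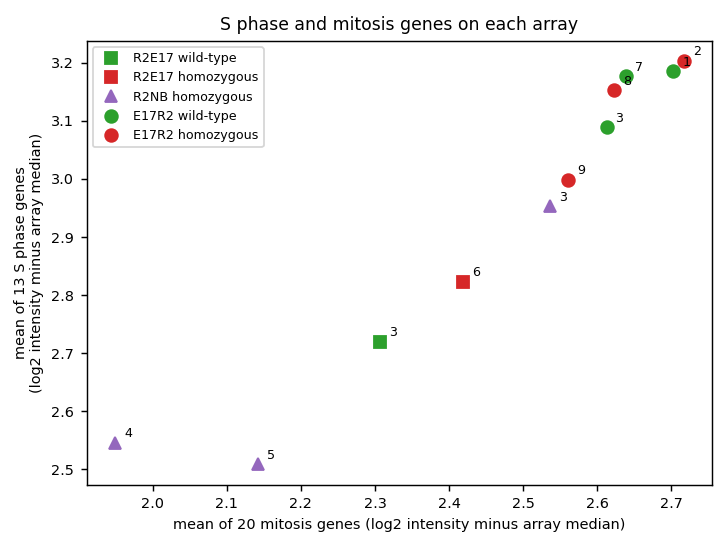
Each point is an array, placed by its mean over 20 mitosis genes (x axis) and 13 S phase genes (y axis), both in log2 intensity minus array median; numbers are those of the titles. The E17R2 arrays sit at the upper right, R2NB homozygous 3 next to them, and R2NB homozygous 4 and 5 at the lower left.

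Within the set of 5 the R2NB arrays were spread widely, with SDs of 0.25 for the S phase mean and 0.30 for the mitosis mean (n = 3). R2NB homozygous 3 had the highest value of the set for 26 of 37 members (70.3%, against 24.4% of all genes). R2NB homozygous 4 had the lowest value for 24 members (64.9%, against 18.4% of genes), 18 of them mitosis genes and 5 S phase genes. R2NB homozygous 5 had the lowest value for 10 members (27.0%, against 19.5% of genes), 7 of them S phase genes. Both numbers 4 and 5 were low in both groups of genes: their S phase means were 2.55 and 2.51, against 2.72 to 2.95 on the other 3 arrays, and their mitosis means 1.95 and 2.14, against 2.31 to 2.54. Aurkb, for instance, read 1.55 in number 3, 0.55 in number 4 and 0.88 in number 5. On R2NB homozygous 4 the mean of 4 liver genes was 5.39 and that of 6 adrenal genes 2.18, whereas no other array of the set exceeded 2.33 and -2.49. Like means were seen in E17R2 arrays: adrenal 2.11 on wild-type 1 and 1.81 on wild-type 3, and liver 4.94 on wild-type 7. The 3′ to 5′ gap of Actb was 0.54, 0.72 and 0.75 on R2NB homozygous 3, 4 and 5. The part of tissue content and RNA quality in the low values was not tested.

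The R2NB arrays were then set against the R2E17 pair, which lies in the same set by its intensity distribution but holds both genotypes. No member passed the test (limma, smallest adjusted p = 0.9999, and 0 members at an unadjusted p under 0.05), and 1 gene of 18193 did (0.0055%), with 215 at an unadjusted p under 0.05. The median member differed by -0.12 and the median gene by -0.02. Below 0 lay 34 of 37 members, against 10282 of 18193 genes. The largest differences were those of Aurkb (-0.33 ± 0.30 SE), Tyms (-0.33 ± 0.21 SE) and Nusap1, a spindle microtubule binder (-0.27 ± 0.15 SE). In Ccne1 alone all 3 R2NB arrays (0.9998 to 1.27) lay under both R2E17 arrays (1.30 and 1.36), which 6.99% of all genes did, and all 3 lay above both in 0 members, against 6.35% of genes. The gap of the median member to the median gene, -0.10, depended on single arrays. It was -0.26 without R2NB homozygous 3, -0.02 without R2NB homozygous 4, -0.22 without R2E17 wild-type 3 and -0.04 without R2E17 homozygous 6, and no member passed in any of these.

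The genotype comparison asked whether proliferation genes differ between Robo2 homozygous and wild-type kidneys, and was tested within the 6 E17R2 arrays. Cell cycle genes did not pass the test in either direction. In limma 0 of 37 members had an adjusted p under 0.05 (smallest 0.8025) and 0 an unadjusted p under 0.05, while 0 of all genes (0%) passed and 1086 had an unadjusted p under 0.05. The members' differences ran from -0.22 to 0.13 with a median of -0.03, against 0.03 for the median gene. Below 0 lay 26 of 37 members, 12 of the 13 S phase genes among them, against 7700 of 18193 genes. This shared direction was not tested. The S phase mean was 3.15 ± 0.05 in wild-type and 3.12 ± 0.11 in homozygous arrays (SD, n = 3 each). The mitosis mean was 2.65 ± 0.05 and 2.63 ± 0.08 (SD, n = 3 each). For 0 members did the genotypes separate without overlap, against 5.6% of genes with all homozygous arrays lower and 7.62% with all higher.

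Single genes were read array by array. Mki67 read 4.26, 4.14 and 4.28 in wild-type arrays 1, 3 and 7 and 4.33, 4.25 and 4.17 in homozygous arrays 2, 8 and 9, a difference of 0.03 ± 0.08 (SE). Ccna2 read 3.55, 3.49 and 3.63 in wild-type and 3.61, 3.61 and 3.59 in homozygous arrays. Pcna read 5.74, 5.70 and 5.94 against 5.82, 5.78 and 5.64. In all 3 genes the ranges overlapped. The lowest difference was that of Ccnd1, at 4.61, 4.48 and 4.62 in wild-type and 4.38, 4.51 and 4.14 in homozygous arrays (-0.22 ± 0.12 SE, unadjusted p = 0.09719 in limma). Its lowest array was homozygous 9. The highest were those of Ccnd2, at 4.48 to 4.58 against 4.68, 4.78 and 4.49 (0.13 ± 0.10 SE), and Bub1, at 2.80, 2.63 and 2.47 against 2.86, 2.71 and 2.71 (0.13 ± 0.11 SE). The D-type cyclins Ccnd1 and Ccnd2 thus stood at opposite ends, neither past the test.

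Other lists of the cycle gave no call between the genotypes either. The smallest p values belonged to the cyclin Ccna1 (0.41 ± 0.11 SE), the inhibitor Cdkn2a (0.41 ± 0.12 SE), the p53 target Cdkn1a (-0.31 ± 0.10 SE) and Mybl2, the B-Myb partner of MuvB (0.25 ± 0.08 SE), each at a limma adjusted p of 0.80. Ccna1 (-4.26 to -3.63 over the 6 arrays) and Cdkn2a (-3.79 to -3.08) read far below the median gene, so their differences rest on dim signals. Among markers, none of which passed, mature tubule genes had a median difference of -0.73, adrenal genes of -1.19 and smooth muscle genes of 0.88. The last rests on homozygous 9, since the smooth muscle mean was 5.31 there, 0.96 and 1.44 on the other 2 homozygous arrays and 1.59 to 1.78 in wild-type.

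E17R2 homozygous 9 was the lowest of the 6 arrays for 19 of 37 members (51.4%, against 24.2% of all genes), 9 of them S phase and 9 mitosis genes. E17R2 homozygous 2 was the highest for 15 members (40.5%, against 13.03% of genes). The homozygous group thus held both ends, and homozygous 8 lay inside the wild-type range of both means (S phase 3.15, mitosis 2.62). On homozygous 9 the mean of 7 smooth muscle genes was 5.31, against at most 1.78 on the other 5, and that of mature tubule genes 0.26. On homozygous 2 the mean of 7 gonad and germ cell genes was -0.44, against at most -2.03 on the others. Whether this tissue content has a part in the members' levels was not tested. The median member lay at -0.05 relative to the median gene, at 0.01 without homozygous 9, at -0.10 without homozygous 2 and at -0.03 without both, and no member passed in any of these.

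The R2E17 pair has 1 array per genotype and so no test. The homozygous array was higher for 25 of 37 members (67.6%), against 34.5% of all genes, with a median difference of 0.07 against -0.11. Pcna was 4.97 in wild-type and 5.42 in homozygous (0.45), Ccnb2, a B-type cyclin, 2.51 and 2.93 (0.42), and Cdk1 3.18 and 3.53 (0.35). Mcm7, at 4.86 and 4.66 (-0.20), and Nusap1, at 2.97 and 2.78 (-0.19), were lowest. The wild-type array of the pair is the one with the RNA quality gap, and the part of that gap was not tested. Whether the genotype difference of the pair departs from that of E17R2 was tested with the interaction in limma, a comparison that shares the E17R2 arrays with the one above. Of the members 0 passed (smallest adjusted p = 0.4328, Pcna), and 2 of 18193 genes did (0.011%). The interaction for Pcna was 0.49 ± 0.22 (SE) and that for Ccnb2 0.48 ± 0.26 (SE). For the median member it was 0.11, against -0.12 for the median gene, and 2 of 37 members lay below the median gene. The spread in that fit comes from the groups of 3 arrays, so the single arrays are assumed to vary alike.

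**Figure D4:**
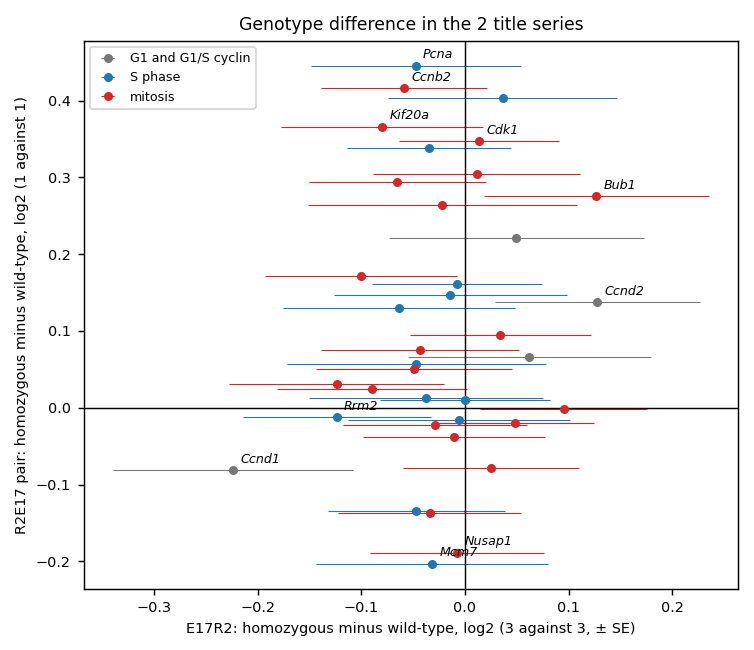
Each point is a member, placed by its homozygous minus wild-type log2 difference in the 6 E17R2 arrays (x axis, bars of ± SE, 3 against 3) and in the R2E17 pair (y axis, 1 against 1, no error). On the x axis the members lie between -0.22 and 0.13, and on the y axis 25 of 37 lie above 0, with Pcna highest and Mcm7 lowest.

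The genes whose level followed the mean of the mitosis members most closely were named by Pearson's r. Over the 6 E17R2 arrays they were Naa35 (0.997), Srsf6 (0.991), Hnrnpu (0.991), Ezh2 (0.989) and Zc3h4 (0.983). Over the 5 other arrays they were Rbbp5 (0.999), Nsun6 (0.999), Prss54 (0.997), Zfp454 (0.996) and Brip1 (0.996), of which the last 4 read below the median gene on every array. The 2 lists of 5 had no gene in common, and each r rests on 5 or 6 arrays of 1 set. The other mitosis and replication genes had a median r of 0.50 over the E17R2 arrays and 0.87 over the 5 others, where the median gene had 0.03 and 0.10.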

How the data were processed

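Total RNA of 11 kidney samples was hybridised as biotin-labelled cRNA to Affymetrix arrays, per the labels' protocols. The authors normalized the deposited intensity values by RMA (no version named), according to the submitters' processing notes. All 45101 values per array were linear and above 0. Deposited intensities were therefore converted to log2 without a pseudocount, and each array's median over genes was subtracted. The number of arrays limits the precision.

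The platform annotation gave 34945 probe sets with 1 symbol, 932 with several and 9160 without one, after 64 controls. Of the 34945, 34741 were found in the RefSeq table. Each gene was its probe set of highest mean log2 over 11 arrays. For 3691 genes, 16 members among them, that probe set carries a suffix (s, x or a) in its name.

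Comparisons used lmFit and eBayes of limma 3.58.1 (R 4.3.3), 2-sided, with Benjamini-Hochberg adjustment over 18193 genes and a threshold of 0.05, on the 6 E17R2 arrays for genotype, 5 arrays for R2NB against R2E17, and 11 arrays for the sets (with genotype as a term) and the interaction. The pipeline was tested on simulated data. Alternatives covered scaling, probe set choice, dim genes, the fit and left-out arrays; 3 with several arrays left out were added after the data had been seen. Any member could be named. From other lists, up to 6 genes past the threshold by smallest p, or else up to 4, could be named, from marker lists the 3 brightest, and 5 genes by likeness. Members and lists were chosen with earlier results of these data known.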

Additional observations from a re-analysis of the deposited data

Results flagged for a closer look

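Of 80 groups of 5 or 6 arrays examined for a single array far from the rest, 3 held one, and chance gives about 1 in 20 groups. The S phase mean minus the mitosis mean was 0.597 on R2NB homozygous 4, against 0.37 to 0.42 on the other 4 arrays of its set. Ccnb2 read 2.89 on E17R2 homozygous 9, against 3.01 to 3.06 on the other 5 E17R2 arrays. Kif20a, a kinesin of cytokinesis, read 1.59 on E17R2 wild-type 1, against 1.31 to 1.37 on the others.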

How the results depend on the processing

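No paired analysis was possible because the groups compared share at most 1 replicate number, and numbers only name the arrays. In the set contrast the members' differences changed sign on values as deposited: Mki67 0.95, Top2a 0.81, Cdk1 0.72, Ccna2 0.33, Ccnb2 0.89, Ccne1 0.69, Ccne2 0.072, Ccnd1 1.02, Ccnd2 0.47, Bub1 0.52, Bub1b 0.83, Aurka 0.80, Aurkb 0.94, Kif11 0.39, Kif20a 0.84, Cenpe 1.06, Cenpf 0.97, Tpx2 0.76, Birc5 0.64, Cdc20 0.78, Cdca8 0.73, Nusap1 0.83, Mcm2 0.94, Mcm3 0.96, Mcm4 0.69, Mcm5 0.65, Mcm6 1.06, Mcm7 1.03, Pcna 0.65, Rrm1 0.61, Rrm2 0.66, Tyms 0.78, Cdc6 0.71, Cdt1 0.82, Gins1 0.46. There 16806 genes and 35 members were called, with 0 members lower. They also turned for Bub1b with the mean of all probe sets (0.033) and Top2a without suffixed probe sets (0.16), where 18 members were lower. Probe sets below the median gene entered both, at means of -3.06 (Bub1b) and -0.71 (Top2a). Ccnd1, not called, was at 0.12 with the mean of all probe sets. Among the 9096 genes above the median gene 4825 were called, 2653 of them lower (29.2%), and 25 members were lower. Leaving out 1 array gave 10183 to 10869 genes and 21 to 29 members lower, with the median member at -0.28 to -0.18 relative to the median gene. Of the set contrast's values for single members under all alternatives, 97 lost the call, 12 gained it, 37 changed sign, and the other 698 kept their side of the threshold; in the other comparisons no member gained a call. R2NB against R2E17 called 0 genes uncentred, with quantile normalization, with bright genes and without R2NB homozygous 4 and R2E17 wild-type 3, 3 with the mean of probe sets, 2 without suffixed ones and 2 with group means over 11 arrays, and 0 to 2 with 1 array left out. The interaction called 4 genes when centred on the 75th percentile or with trend and robust, 0 with the mean of probe sets, 1 without suffixed ones, 6 among bright genes and 2 to 13 with 1 array left out; it could not be fitted without either R2E17 array. The E17R2 genotype fit called 0 to 1 genes with 1 array left out. The S phase minus mitosis difference was -0.05 between the sets and -0.01 between the E17R2 genotypes; with medians over members these were -0.17 and -0.088, and with 1 array left out -0.09 to -0.03 and -0.04 to 0.01. The causes were not tested. Signal limits Tyms and Ccne2 most.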
